A study of Homo sapiens with 18 samples.

Results

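The TSC22 domain family was followed at the mRNA level in MDA-MB-231 cells, an established human triple negative breast cancer (TNBC) line. Its members were the rows named TSC22D1, TSC22D2, TSC22D3 and TSC22D4, which are 4 of the 60642 gene symbols counted in each of 18 RNA-seq libraries. All 4 passed the filter on low counts, as did 15298 symbols in all. TSC22D3 encodes the GC-induced leucine zipper protein, GILZ.

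Cells carried 1 of 3 siRNA pools, each used at 25 nM for 48 h: a non-specific control pool (siNS), a pool against HP1γ, whose gene is CBX3 (siHP1γ), or a pool against PRMT5 (siPRMT5). Each was then given 100 nM dexamethasone (Dex), a synthetic glucocorticoid (GC), or the same volume of its vehicle ethanol (Eth) for 8 h. This gave 6 conditions with 3 libraries each. The depletions were transient, all conditions came from 1 cell line, and the siNS conditions served as the undepleted reference. The study describes the replicates as biological, without saying what was repeated, and p-values measure the spread between these libraries. HP1γ is a chromatin protein that binds methylated histone H3, PRMT5 is an arginine methyltransferase, and the comparisons ask how far each is needed for the GC response.

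Proteins of the TSC22 family share a conserved TSC box followed by a leucine zipper, through which they form dimers. TSC22D1 was found as a transcript stimulated by TGF-β. The long forms of TSC22D1, TSC22D2 and TSC22D4 associate with NRBP pseudokinases and WNK kinases, which adjust cell volume and ion transport. GILZ is a classical target of the glucocorticoid receptor (GR) and binds NF-κB and AP-1 subunits and proteins of the Ras and Raf cascade, by which it takes part in the anti-inflammatory action of GCs.

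TSC22D3 lies on chromosome X (hg38, chrX:107713221-107777342, minus strand, GENCODE v44) and has several start sites. The stretch printed here precedes the start of a short form and is shown because it holds the site type through which forkhead factors, among them the FOXO proteins known to act on this gene, contact DNA. It covers 177 bases at chrX:107717136-107717312, read on the minus strand from the RefSeq promoter table (GRCh38.p14), and it ends just before an exon annotated by GENCODE. Capitals mark TGTTTAC.
TSC22D3 upstream stretch: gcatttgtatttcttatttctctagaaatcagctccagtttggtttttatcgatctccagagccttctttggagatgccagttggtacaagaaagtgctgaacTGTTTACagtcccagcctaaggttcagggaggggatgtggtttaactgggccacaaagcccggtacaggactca

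RefSeq gave 10 promoter windows for the family (250 bases before to 50 after a start), of which TSC22D1 had 5, TSC22D3 had 4 and TSC22D4 had 1. TGTTTAC, searched on both strands, occurred in 1 of these windows, the printed one, and in 3.42% of all 35116 windows in the table. TATAAA occurred in 3 of the 10 windows, the same TSC22D3 window and 2 of TSC22D1, and in 11.5% of all windows. The GR palindrome, spelled GNACANNNTGTNC, was in none of the 10 windows and in 0.39% of all windows. It was likewise absent for all 4 members within 5 kb upstream of the canonical start and of any RefSeq start. Of 20017 genes searched at the canonical start alone, 6.08% held it. TSC22D3 has 18 annotated transcripts, and other starts were not searched. These matches describe letters in the windows only.

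Library totals ran from 8682992 to 12472381 counts. CBX3 mRNA stood at 220 to 274 CPM (counts scaled by library total and TMM factor) in siNS libraries and at 9.23 to 15.8 CPM in siHP1γ libraries. PRMT5 mRNA stood at 226 to 262 CPM in siNS libraries and at 6.10 to 11.5 CPM in siPRMT5 libraries. Within the depleted cells both targets were somewhat higher with Dex: PRMT5 at 6.10 to 8.37 CPM with Eth and 9.39 to 11.5 CPM with Dex in siPRMT5 cells (1.43-fold, edgeR adjusted p = 0.00634), and CBX3 at 9.23 to 10.5 and 11.4 to 15.8 CPM in siHP1γ cells (1.39-fold, adjusted p = 0.0273). The Dex response of PRMT5 differed between siPRMT5 and siNS cells by 0.57 on the log2 scale (adjusted p = 0.0297), and that of CBX3 between siHP1γ and siNS cells by 0.63 (adjusted p = 0.068, not called). The part of these residual levels in the differences between Dex responses was not tested. PRMT5 was also lower after HP1γ depletion, at 206 to 211 CPM with Eth and 177 to 199 CPM with Dex, and the part of this in the siHP1γ results was not tested. All 6 mesenchymal and basal markers examined were present in every library, from 114 CPM for EGFR to 9592 CPM for VIM. Of 6 luminal markers, the receptor gene ESR1 was at 0 in 12 libraries and PGR at 0 in 17, while ERBB2 (24.5 to 36.0 CPM), EPCAM (8.57 to 14.01 CPM), FOXA1 (3.27 to 10.3 CPM) and GATA3 (2.68 to 7.48 CPM) were counted in every library. The sum of the 6 was 56.6 to 62.6 CPM in siHP1γ libraries against 47.8 to 57.0 CPM in siNS and 48.6 to 55.0 CPM in siPRMT5 libraries, and its part in the siHP1γ results was not tested. In addition, the immune markers PTPRC and CD3E each reached at most 2 counts. The endothelial markers PECAM1 and CDH5 together were at 1.44 to 4.23 CPM with Eth and 3.62 to 8.26 CPM with Dex, with CDH5 at 0 in 2 libraries, and their part in the Dex results was not tested.

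TSC22D3 was scarce without Dex and abundant with it. In siNS cells given Eth its level was 19.8, 17.8 and 19.4 CPM, and with Dex it was 238, 198 and 271 CPM. In siHP1γ cells the Eth libraries held 21.6, 21.2 and 21.7 CPM and the Dex libraries 127, 128 and 147 CPM. In siPRMT5 cells the Eth libraries held 45.9, 42.1 and 40.7 CPM and the Dex libraries 430, 362 and 424 CPM. Every Dex library was above every Eth library, whatever the siRNA, and no 2 of the 6 conditions overlapped, although the neighbours siNS Eth and siHP1γ Eth did not differ by the fit described later. The share of all genes separated in this way was not counted, here or for the other members below. In rising order the conditions were siNS Eth, siHP1γ Eth, siPRMT5 Eth, siHP1γ Dex, siNS Dex and siPRMT5 Dex, with means from 19.0 ± 1.02 CPM to 405 ± 37.9 CPM (SD, n = 3). The counts behind these levels were 175 to 428 per Eth library and 1305 to 4400 per Dex library. With 3 libraries against 3, a two-sided exact permutation test cannot give a p below 0.1, so the tests that follow are edgeR's quasi-likelihood tests across all genes.

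TSC22D1, the most abundant member per length of transcript without Dex, fell with Dex. It was at 212, 222 and 209 CPM in siNS Eth libraries and at 163, 151 and 171 CPM in siNS Dex libraries. Levels in siHP1γ cells were 267, 262 and 282 CPM with Eth against 211, 201 and 204 CPM with Dex. Those in siPRMT5 cells were 348, 342 and 372 CPM with Eth against 233, 231 and 233 CPM with Dex. The Eth and Dex libraries did not overlap in any of the 3 cell states, and the share of all genes doing so was not counted. Ordered by mean, siNS Dex was lowest at 162 ± 9.75 CPM and siPRMT5 Eth highest at 354 ± 15.8 CPM, and only the neighbours siHP1γ Dex and siNS Eth overlapped.

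TSC22D2 differed with the siRNA more than with Dex. Its 6 means were 61.2 ± 2.26 and 58.8 ± 1.27 CPM in siNS cells (Eth and Dex, SD, n = 3), 77.3 ± 4.89 and 70.5 ± 1.28 CPM in siHP1γ cells, and 91.5 ± 6.08 and 86.6 ± 1.70 CPM in siPRMT5 cells. Eth and Dex libraries overlapped in siNS and siPRMT5 cells, and in siHP1γ cells they were separated by less than 1 CPM.

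TSC22D4, the least abundant member by CPM, was at 14.4, 16.8 and 15.02 CPM in siNS Eth libraries and at 22.7, 18.2 and 19.3 CPM in siNS Dex libraries. Its means were 20.3 ± 0.319 and 18.8 ± 0.457 CPM in siHP1γ cells (Eth and Dex, SD, n = 3) and 24.7 ± 0.841 and 23.9 ± 1.51 CPM in siPRMT5 cells. The siNS Eth libraries lay below all others, while the siNS Dex libraries spanned the levels of both siHP1γ conditions.

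**Figure D1:**
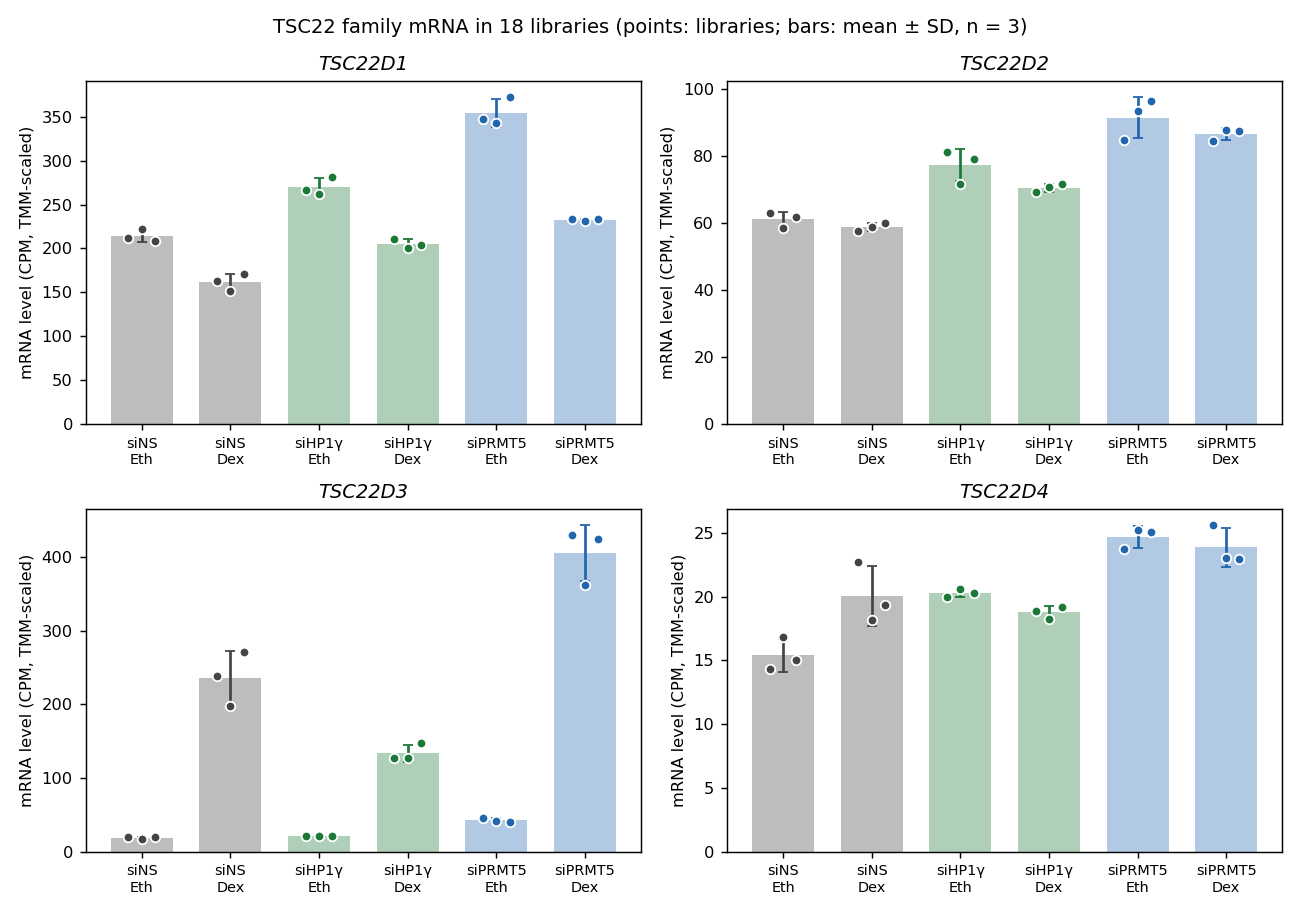
mRNA level of the 4 TSC22 family genes (CPM scaled by library, linear axes from 0, a separate scale per gene) in the 6 conditions. Points are libraries and bars are the mean ± SD of 3; TSC22D3 rises from 19.0 to 236 CPM with Dex in siNS cells, while TSC22D1 falls from 214 to 162 CPM.

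The response to Dex was tested within each cell state, and a gene was called at an adjusted p under 0.01 with a fold change of at least 1.5. Of the 4 members, 1 was called in siNS cells, where 2.71% of all genes tested were called, 1 in siHP1γ cells (1.67% of all genes) and 2 in siPRMT5 cells (5.44%). TSC22D3 was called in all 3. Its log2 fold change was 3.64 in siNS cells (SE 0.109, 95% interval 3.41 to 3.86, edgeR adjusted p = 2.14e-18), or 12.4-fold. In siHP1γ cells it rose by 2.63 on the log2 scale (SE 0.106, 2.42 to 2.85, adjusted p = 1.3e-15), or 6.21-fold. In siPRMT5 cells it rose by 3.24 (SE 0.101, 3.03 to 3.45, adjusted p = 1.55e-18), or 9.44-fold. Of the 11411 genes whose average over all libraries reached 5 CPM, only 1 rose more in siNS cells and 1 in siHP1γ cells, and in siPRMT5 cells it ranked 6.

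TSC22D1 was the other member called, and only in siPRMT5 cells, where it fell by 0.61 on the log2 scale (SE 0.0617, edgeR adjusted p = 2.94e-08), a 1.52-fold lower level that lies just past the 1.5-fold limit. In siNS cells its log2 fold change was -0.41 (adjusted p = 4.27e-05) and in siHP1γ cells -0.40 (adjusted p = 8.43e-05), both 1.32-fold lower and therefore short of that limit. Without siPRMT5 Eth replicate 3 the value in siPRMT5 cells was -0.57 and it too was not called. The differences between these responses were not called, at -0.20 for siPRMT5 against siNS (95% interval -0.38 to -0.02, adjusted p = 0.204) and 0.01 for siHP1γ against siNS (-0.17 to 0.19, adjusted p = 0.97).

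TSC22D2 was not called in any cell state, with log2 fold changes of -0.06 in siNS cells, -0.13 in siHP1γ cells and -0.08 in siPRMT5 cells. The 3 intervals together ran from -0.28 to 0.09. TSC22D4 had a log2 fold change of 0.39 with Dex in siNS cells (95% interval 0.18 to 0.59, edgeR adjusted p = 0.0147), short of both limits, and of -0.11 and -0.05 in siHP1γ and siPRMT5 cells. Its response differed from that in siNS cells by -0.49 for siHP1γ (adjusted p = 0.1) and by -0.43 for siPRMT5 (adjusted p = 0.0781), neither of which was called. These responses use the same siNS libraries on one side.

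**Figure D2:**
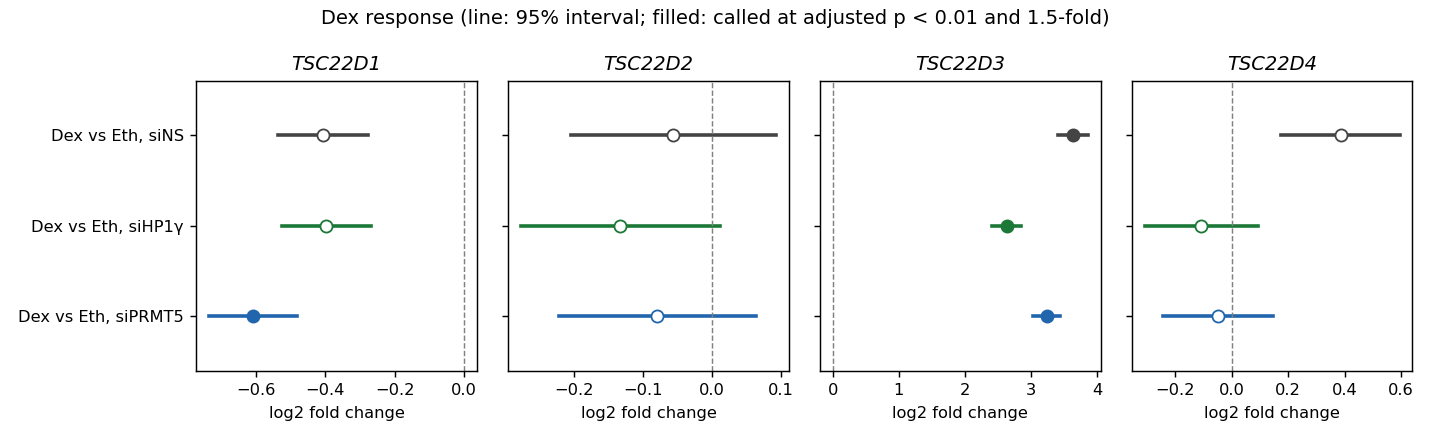
Log2 fold change with Dex against Eth for each member in siNS, siHP1γ and siPRMT5 cells, with a separate scale per gene. Circles are estimates, lines 95% intervals, and filled circles were called; TSC22D3 is filled in all 3 cell states (3.64, 2.63 and 3.24) and TSC22D1 in siPRMT5 cells (-0.61).

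Whether depletion altered the Dex response of TSC22D3 was tested as an interaction, called at an adjusted p under 0.05. The response was smaller in siHP1γ than in siNS cells on the log2 scale (difference -1.003, SE 0.151, 95% interval -1.31 to -0.69, edgeR adjusted p = 0.00104), so that the fold increase was smaller by a factor of 2.004. TSC22D3 was 1 of 4 members called in this comparison, against 0.399% of all genes, and its difference ranked 6 from the lowest of 11411 genes. Leaving out each library in turn kept it between -1.10 and -0.88 and called.

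In siPRMT5 against siNS cells the difference in the log2 response of TSC22D3 was -0.40 (SE 0.145, 95% interval -0.70 to -0.10, edgeR adjusted p = 0.125), and it was not called. Here 0 of the 4 members were called, against 3.8% of all genes. DESeq2 also called 0, and 3 had an unadjusted edgeR p under 0.05, namely TSC22D1, TSC22D3 and TSC22D4. Without siNS Dex replicate 2, the lowest of the siNS Dex libraries for TSC22D3, the difference was -0.50 (adjusted p = 0.0353). On the linear scale Dex added 362 CPM (SE 21.9) in siPRMT5 cells, 217 CPM (SE 21.2) in siNS cells and 112 CPM (SE 6.66) in siHP1γ cells, and these increments were not tested against each other. The Eth level in siPRMT5 cells was 42.9 ± 2.70 CPM against 19.0 ± 1.02 CPM in siNS cells (SD, n = 3).

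Between both depletions, the log2 response of TSC22D3 was larger in siPRMT5 than in siHP1γ cells by 0.60 (SE 0.144, 95% interval 0.31 to 0.90, edgeR adjusted p = 0.0204). It was the only member called, against 2.1% of all genes. The call was lost on leaving out siHP1γ Eth replicate 1 or 3, siHP1γ Dex replicate 2, siPRMT5 Eth replicate 2 or 3, or siPRMT5 Dex replicate 3, each time with a value of 0.57 to 0.60 and an adjusted p of 0.052 to 0.0626.

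Depletion was also compared at fixed treatment, with calls at an adjusted p under 0.05. With Dex, HP1γ depletion lowered TSC22D3 by 0.82 on the log2 scale (log2 fold change -0.82, SE 0.0908, edgeR adjusted p = 2.16e-07), to a level 1.77-fold lower. It raised TSC22D1 by 0.34 (adjusted p = 0.00019) and TSC22D2 by 0.26 (adjusted p = 0.00804). TSC22D4 had a log2 fold change of -0.10 (95% interval -0.30 to 0.10, adjusted p = 0.501). Thus 2 members rose and 1 fell, against 24% of all genes called in either direction.

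Without Dex, HP1γ depletion gave 3 members higher and none lower, against 31.8% of all genes called and 16.5% called higher. TSC22D1 rose by 0.34 (edgeR adjusted p = 0.000164), TSC22D2 by 0.34 (adjusted p = 0.000652) and TSC22D4 by 0.39 (adjusted p = 0.00421). TSC22D3 had a log2 fold change of 0.18 (95% interval -0.07 to 0.43, adjusted p = 0.274), so the lower level seen with Dex was not seen without it.

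PRMT5 depletion raised all 4 members at both treatments. With Dex the log2 fold changes were 0.52 for TSC22D1 (edgeR adjusted p = 2.08e-07), 0.56 for TSC22D2 (adjusted p = 5.13e-07), 0.78 for TSC22D3 (adjusted p = 1.02e-07) and 0.25 for TSC22D4 (adjusted p = 0.0413). The background was 42.4% of all genes called, with 20.6% higher. The call of TSC22D4 was lost without siNS Dex replicate 2 or 3 or siPRMT5 Dex replicate 1 or 2, with values from 0.19 to 0.28. Without Dex the 4 values were 0.72, 0.58, 1.18 and 0.68 in the same order, with adjusted p from 6.42e-10 to 5.45e-06, against 42.1% of all genes called and 20.6% higher. TSC22D3, at 2.26-fold, had the largest increase of the 4 and ranked 84 of 11411 genes.

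Set against each other, siPRMT5 cells held more of all 4 members than siHP1γ cells, with Dex (49.9% of all genes called, 24.4% higher) and without it (48.4% called, 23.4% higher). The difference was largest for TSC22D3, with log2 fold changes of 1.60 with Dex (edgeR adjusted p = 2.43e-13) and 0.995 without (adjusted p = 5.45e-08). For the other 3 members it lay between 0.18 and 0.39. The smallest, that of TSC22D1 with Dex (0.18, adjusted p = 0.0188), was not called without siHP1γ Dex replicate 2, at 0.17 (adjusted p = 0.0607). The difference of TSC22D4 without Dex (0.28, adjusted p = 0.0173) was not called when no filter on low counts was applied (adjusted p = 0.0738).

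**Figure D3:**
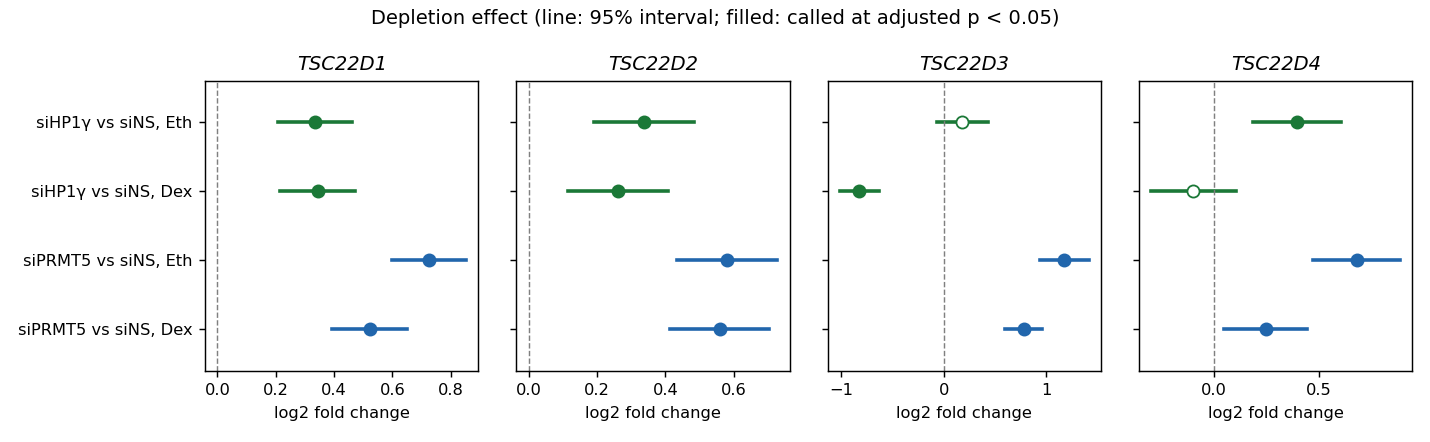
Log2 fold change of each member after HP1γ or PRMT5 depletion against siNS, with Eth and with Dex, a separate scale per gene. Circles are estimates, lines 95% intervals and filled circles called; all 4 members are higher in siPRMT5 cells, and TSC22D3 is lower in siHP1γ cells with Dex (-0.82).

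To compare members with each other, CPM were divided by the annotated exon length, 8.364 kb for TSC22D1, 11.7 kb for TSC22D2, 4.957 kb for TSC22D3 and 3.668 kb for TSC22D4. The part of the transcript that the library kit reads was not given in the sources used here, so these shares depend on that scaling. In siNS cells with Eth, TSC22D1 held 65.9% ± 0.805 of the family's CPM per kb and TSC22D3 9.86% ± 0.697 (SD, n = 3). With Dex, TSC22D3 held 61.3% ± 2.63 and TSC22D1 25.1% ± 1.39, so their order was exchanged. In siHP1γ cells with Dex the pair was nearly level, at 43.0% ± 2.10 for TSC22D3 and 39.2% ± 1.78 for TSC22D1. In siPRMT5 cells with Dex TSC22D3 held 66.1% ± 2.02 and TSC22D1 22.6% ± 1.37. Without scaling by length, TSC22D3 held 49.3% and TSC22D1 34.0% of the family's reads in siNS Dex libraries, and the order in siHP1γ Dex libraries was the other way, at 31.2% and 47.95%.

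TSC22D3 was set beside 14 classical GC targets, among them FKBP5, a chaperone that restrains GR, PER1, a clock gene, KLF9, a Krüppel-like repressor, and SGK1, a kinase. ZBTB16 reached at most 4 counts in a library and was not tested. Of the 13 tested, 10 rose with Dex in siNS cells, 9 in siHP1γ cells and 11 in siPRMT5 cells, and none fell. The shares of all genes called were 2.71%, 1.67% and 5.44%. Their median log2 fold changes were 1.51, 1.45 and 2.28, against 0.0036, -0.0017 and -0.00093 over all genes tested. The TSC22D3 response was the largest of these genes in all 3 cell states.

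The Dex response of 3 of the 13 targets was called smaller in siHP1γ than in siNS cells, where 0.399% of all genes were called. The 3 were KLF9 (-0.69, edgeR adjusted p = 0.0229), PER1 (-0.75, adjusted p = 0.0195) and SGK1 (-0.55, adjusted p = 0.0209). DESeq2 called 5 of the 13, and 8 had an unadjusted edgeR p under 0.05. The median difference of the 13 was -0.37, and TSC22D3 had -1.003. In siPRMT5 against siNS cells, where 3.8% of all genes were called, the response was called larger for 3 targets and smaller for none. These were DUSP1, a MAP kinase phosphatase, at 1.22 (adjusted p = 7.96e-08), ERRFI1, an EGFR inhibitor, at 0.68 (adjusted p = 0.000144), and FKBP5 at 0.84 (adjusted p = 2.31e-05). The median difference of the 13 was 0.30, where TSC22D3 had -0.40. DESeq2 also called 3 of the 13, and 8 had an unadjusted edgeR p under 0.05. Between siPRMT5 and siHP1γ cells the response was called larger for 10 of the 13, against 2.1% of all genes called. The median of the 13 was 0.57, and TSC22D3 had 0.60.

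**Figure D4:**
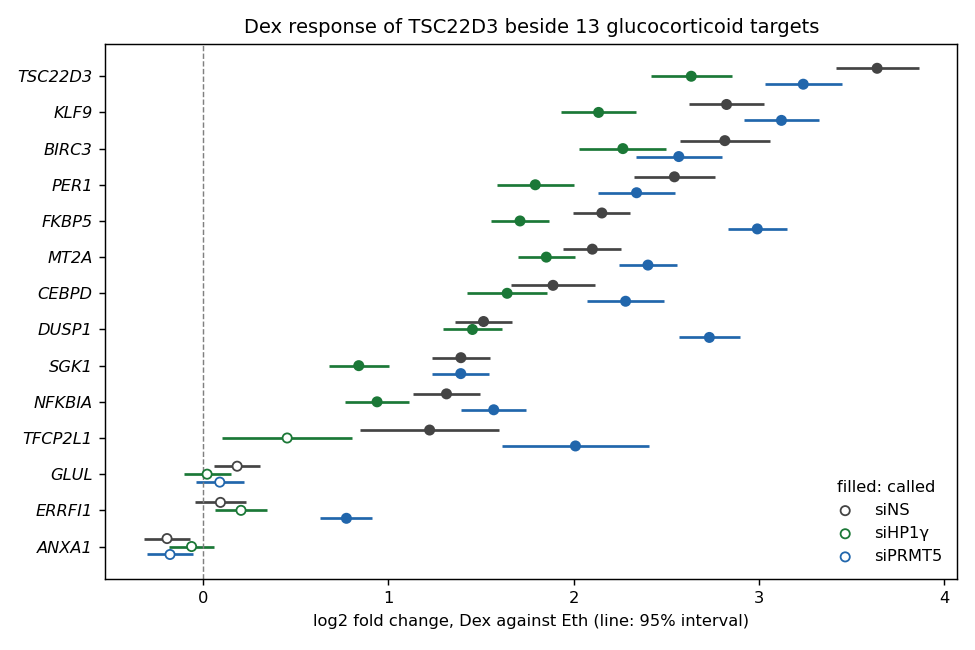
Log2 fold change with Dex against Eth in siNS, siHP1γ and siPRMT5 cells for TSC22D3 and 13 classical GC targets, ordered by the siNS value; circles are estimates, lines 95% intervals and filled circles called. TSC22D3 (3.64, 2.63 and 3.24) stands above the other 13 in each cell state.

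Of 9 genes known to act on TSC22D3, 0 were called with Dex in siNS cells and 0 in siHP1γ cells by edgeR or DESeq2, with 3 in each at an unadjusted edgeR p under 0.05. By edgeR 2.71%, 1.67% and 5.44% of all genes were called in siNS, siHP1γ and siPRMT5 cells. The median log2 fold change of the 9 was -0.11, -0.06 and -0.04 in siNS, siHP1γ and siPRMT5 cells. In siPRMT5 cells 1, MYC, rose (0.64, edgeR adjusted p = 6.71e-08). NR3C1, the gene of GR itself, had log2 fold changes with Dex of -0.22, -0.06 and -0.08 in siNS, siHP1γ and siPRMT5 cells (adjusted p = 0.143, 0.807 and 0.635). PRMT5 depletion raised NR3C1 with Dex by 0.31 (adjusted p = 0.0062), where TSC22D3 rose by 0.78. Without Dex NR3C1 had a log2 fold change of 0.18 (adjusted p = 0.121) and was not called, where TSC22D3 rose by 1.18. The forkhead genes FOXO1 and FOXO4 rose after PRMT5 depletion with Dex (0.67 and 0.64, adjusted p = 0.000115 and 0.00105) and without it (0.55 and 0.74, adjusted p = 0.00131 and 0.000218). FOXO3, also on the list, was not called, at 0.09 with Dex and -0.18 without (edgeR adjusted p = 0.422 and 0.123). NR3C2 and MYC fell after PRMT5 depletion with Dex (-1.21 and -0.47, adjusted p = 0.0157 and 3.28e-06). NR3C2 had 5 to 10 counts per siPRMT5 Dex library. Without Dex PRMT5 depletion gave 3 higher and 2 lower of the 9, against 42.1% of all genes called. After HP1γ depletion with Dex, FOXO3 and FOXO4 rose (0.29 and 0.51, adjusted p = 0.0173 and 0.0125), while TSC22D3 fell. MYC also fell there (-0.44, adjusted p = 2.48e-05), and FOXO1 was not called (0.25, edgeR adjusted p = 0.165). HP1γ depletion without Dex raised FOXO1 and FOXO4 (0.38 and 0.50, adjusted p = 0.028 and 0.0114), while TSC22D3 was not called (0.18, adjusted p = 0.274). It lowered MYC (-0.47, adjusted p = 7.74e-06), against 31.8% of all genes called. FOXO3 was not called there (0.13, edgeR adjusted p = 0.265). The part of these genes in the TSC22D3 results was not tested. Over the list, PRMT5 depletion with Dex gave 3 higher and 2 lower of 9 (median 0.10), against 42.4% of all genes called, and HP1γ depletion with Dex 2 higher and 1 lower (median 0.11), against 24%. Both shares are near the background.

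Among 12 partners and targets of GILZ, 11 were tested, since HRAS was listed at 0 counts in all libraries. CEBPD is also one of the classical GC targets above, and FOXO3 one of the genes listed as acting on TSC22D3. CEBPB and CEBPD, a pair of C/EBP transcription factors, rose with Dex in all 3 cell states, and JUN, an AP-1 subunit, fell in all 3. In siNS cells the log2 fold changes were 1.18 for CEBPB (edgeR adjusted p = 1.01e-08), 1.89 for CEBPD (adjusted p = 1.19e-12) and -1.30 for JUN (adjusted p = 5.96e-12). JUN fell less in siHP1γ cells, by 0.79, and the difference from siNS cells was 0.51 (adjusted p = 0.0433). The other 8 genes were not called with Dex in any cell state, where 1.67% to 5.44% of all genes were called. RELA and NFKB1, which encode NF-κB subunits, had log2 fold changes of 0.15 and -0.02 in siNS cells. The median of the 11 was 0.15 in siNS, -0.04 in siHP1γ and 0.03 in siPRMT5 cells.

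The partners of the long family members in cell volume control gave 0 calls with Dex in any cell state among 10 tested of 12 listed, by edgeR or DESeq2, against 1.67% to 5.44% of all genes called by edgeR. At an unadjusted edgeR p under 0.05 there were 3, 5 and 5 in siNS, siHP1γ and siPRMT5 cells, and the median log2 fold changes were 0.11, 0.05 and 0.06. SLC12A7 and WNK2 reached at most 2 and 5 counts and were not tested. After PRMT5 depletion without Dex, where all 4 family members rose, 5 of the 10 rose and 4 fell, against 42.1% of all genes called and 20.6% higher. NRBP1, the pseudokinase partner, rose by 0.62 (edgeR adjusted p = 4.18e-06) and SLC12A4, a potassium chloride cotransporter, by 0.75 (adjusted p = 4.82e-07). NRBP2 had a log2 fold change of -0.60 (adjusted p = 0.000919) and STK39, a kinase downstream of WNK, of -0.31 (adjusted p = 0.00598). After HP1γ depletion without Dex, 4 rose and 1, OXSR1, fell by 0.51 (adjusted p = 1.15e-05), against 31.8% of all genes called.

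The genes whose profile was nearest to each member were ranked by the root mean square difference between the centred log2 levels of the 6 conditions, over 11410 other genes. For TSC22D3 these were ANGPTL4 (0.405), NNMT (0.407), MT1P3 (0.417), DNER (0.425) and BIRC3 (0.438), while its own profile spanned 4.40 log2 units. MT1P3 is a metallothionein pseudogene and may share reads with its relatives. TSC22D1 was followed most closely by ARID5B (0.0306), TRIM8 (0.0384) and XIRP2 (0.0846) over a span of 1.13. The nearest to TSC22D2 were SECISBP2L (0.0258), TAB3 (0.0414) and FKBP15 (0.0535) over a span of 0.63. Those nearest to TSC22D4 were ACIN1 (0.0330), RAI1 (0.0335) and GPATCH3 (0.0388) over a span of 0.68. Within the family TSC22D2 and TSC22D4 were nearest to each other (0.139), and TSC22D3 lay at 1.60 to 1.87 from the other 3.

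Other genes overlap some members in the annotation, and the strand setting of the counting was not given in the sources used here. TSC22D1 (chr13:44432143-44577147, minus strand) overlaps the antisense gene TSC22D1-AS1, which had 0 to 7 counts per library, and 2 further annotated genes. TSC22D2 (chr3:150408298-150466422, plus strand) overlaps none. TSC22D3 overlaps NCBP2L on the opposite strand, which had 0 counts in every library. TSC22D4 (chr7:100463359-100479232, minus strand) overlaps SPACDR, counted under its older symbol C7orf61 with 2 to 20 counts, and 1 unnamed gene, both on the same strand. TSC22D4 itself had 130 to 280 counts per library.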

How the data were processed

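Libraries made from total RNA with Lexogen kits were read on an Illumina NextSeq500. The authors aligned reads to hg38 with Bowtie2 2.4.2 and deposited raw counts per gene symbol from htseq-count 0.9.1, with no normalization. The annotation and strand setting were not given in the sources used here. A further table holds only fold changes and p-values of the authors' DESeq2 (2.11.40.7) comparisons and was not used. All 18 libraries were fitted together in edgeR 4.0.16 (R 4.3.3) with TMM scaling, its default filter on low counts and 12 residual degrees of freedom. P-values were adjusted by the Benjamini-Hochberg method over 15298 genes. CPM were scaled by TMM. The script was tested on simulated data. Alternatives used DESeq2 1.42.0, other scalings, filters and fold limits, a replicate block, and each library left out. Some listed genes and markers are not reported here by name. The members and gene lists were chosen with earlier results of these data known. Named genes were the 4 members, listed genes in the comparisons named, and the nearest profiles (5 for TSC22D3, 3 for each other member).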

Additional observations from a re-analysis of the deposited data

Results flagged for a closer look

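For TSC22D3 the effect of Dex differed between cell states by a test of the difference itself in 2 comparisons. The log2 response in siHP1γ cells differed from that in siNS cells by -1.003 (SE 0.151, edgeR adjusted p = 0.00104), with adjusted p from 2.96e-10 to 0.00239 over 7 other settings. With Dex the level was lower in 3 of 3 siHP1γ libraries than in any siNS Dex library. With Eth it was higher in 3 of 3 than in any siNS Eth library, but this difference was not called (0.18, adjusted p = 0.274). The exact permutation p of 3 against 3 cannot go below 0.1, and the share of all genes separated in this way was not counted. The response in siPRMT5 cells differed from that in siHP1γ cells by 0.60 (SE 0.144, adjusted p = 0.0204), with adjusted p from 0.000603 to 0.0362 over the same 7. This second call was lost in 6 of 18 fits with a library left out, where adjusted p reached 0.0626. Both comparisons share the siHP1γ libraries. Groups of 3 libraries were not tested for outlying samples.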

How the results depend on the processing

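Over 48 member results and their alternatives, 1180 of 1212 values kept their direction and their side of the threshold, 20 lost the call, 1 gained it and 11 changed sign, none of them from a called value. DESeq2 gave no adjusted p for TSC22D4 in siHP1γ against siNS cells. TSC22D3 with Dex in siNS cells stayed between 3.63 and 3.65 (3.52 to 3.74 with each library left out). With a limit of 2-fold, 1 member was called with Dex in siPRMT5 cells in place of 2, and the genes called numbered 194, 106 and 373 in siNS, siHP1γ and siPRMT5 cells. Leaving out single libraries gave 1 to 2 members called there, 0 to 1 for siPRMT5 against siNS and 0 to 1 for siPRMT5 against siHP1γ. Genes called for siHP1γ against siNS numbered 61, and 327 with DESeq2, 374 with no filter and 20 to 186 with a library left out. For siPRMT5 against siNS they numbered 319 to 897 with a library left out, against 582. The 897 came without siHP1γ Dex replicate 1, which is not part of that comparison. The cause was not tested. The response of TSC22D1 in siHP1γ against siNS cells was -0.0051 with no filter, and -0.027 to 0.057 with a library left out. With a library left out, TSC22D4 after HP1γ depletion with Dex ranged from -0.17 to 0.0016, TSC22D2 in siPRMT5 against siNS cells from -0.072 to 0.024, and TSC22D2 in siPRMT5 against siHP1γ cells from -0.0021 to 0.10. TSC22D4 after PRMT5 depletion with Dex lost its call with DESeq2 (adjusted p = 0.0641), no filter (0.177) and the libraries of that comparison alone (0.0762). TSC22D1 in siPRMT5 against siHP1γ cells with Dex lost its call with scaling by library size alone (adjusted p = 0.147), no filter (0.088) and that comparison's libraries alone (0.0616).

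The replicate numbers did not pair the libraries: 13 of 45 same-numbered pairs had a correlation of deviations over 0.1 (median -0.0071), and 7 of 18 libraries were closest to their own number. A replicate block changed the number of members called in none of the 12 comparisons, and the genes called for siHP1γ against siNS numbered 94 in place of 61. Depth limits TSC22D4 most, at 130 to 280 counts per library.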

Other observations

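Genes of the TGF-β axis, the pathway after which TSC22D1 is named, were all 13 tested. With Dex 3 rose in siNS cells, among them the ligand TGFB2 (log2 fold change 0.68, edgeR adjusted p = 0.000348) and the coreceptor TGFBR3 (0.78, adjusted p = 9.3e-07). None fell, against 2.71% of all genes called in either direction, and the median of the 13 was 0.10. After PRMT5 depletion without Dex, 8 rose and 2 fell, with a median of 0.44, against 42.1% of all genes called. The receptor gene TGFBR2 rose by 0.53 (adjusted p = 5.16e-08), where TSC22D1 rose by 0.72. After HP1γ depletion without Dex, 5 rose and 3 fell, against 31.8% of all genes called, with TGFBR2 at 0.48 (adjusted p = 6e-07).

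The summed level of the 4 family members was 310 ± 5.12 CPM in siNS Eth and 477 ± 47.8 CPM in siNS Dex libraries (SD, n = 3). It was 389 ± 13.5 and 428 ± 12.7 CPM in siHP1γ cells and 513 ± 18.2 and 748 ± 38.9 CPM in siPRMT5 cells.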
